A study of Homo sapiens with 12 samples.

Results

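A set of 54 genes of mitosis and chromosome segregation was followed across 12 expression arrays of LNCaP cells, a human prostate adenocarcinoma line that responds to androgen. The genes were taken as a named list, and each was represented by the probe set of its symbol with the highest mean. All 54 had a probe set, among 19775 genes with a probe set of a single symbol. Testing needed a log2 signal over 4 on 3 or more arrays, and 50 of the 54 mitotic genes and 10265 genes in all met this. INCENP, a scaffold of the chromosomal passenger complex, and CENPA, the histone variant of centromeres, were above 4 on 0 arrays. The kinesins KIF18A and CENPE were above 4 on 1 array each. Of the 50 tested genes 17 were above 4 on all 12 arrays, while PLK1, BUB1, TTK, ESPL1, AURKB and SPC25 passed through the arrays of 1 group alone, SRF siRNA with vehicle.

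Progress through mitosis depends on a wave of transcription late in the cell cycle that supplies the cyclin-dependent kinase and its B-type cyclins, the spindle and its motors, the kinetochore, the checkpoint that delays anaphase until chromosomes are attached, and the anaphase-promoting complex that ends the delay. Many of these genes carry a cell cycle genes homology region (CHR) and CCAAT boxes near their start sites. The DREAM complex represses them through the CHR in resting cells, and MuvB with B-MYB and FOXM1 activates them before mitosis, so their summed mRNA is widely used as a readout of how many cells of a culture are dividing. In prostate cancer cells androgen can either stimulate or restrain division, depending on its dose and duration. Serum response factor (SRF) is a transcription factor that binds CArG boxes in immediate-early and actin cytoskeleton genes.

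The 4 groups of 3 arrays each were SRF siRNA with R1881, control siRNA with R1881, SRF siRNA with vehicle and control siRNA with vehicle. R1881 is a synthetic androgen, given at 5 nM, and the vehicle was ethanol. Cells of all 4 groups had first been held without androgen for 48 h and then transfected, and the 48 h treatment began 42 h after transfection. The labels call the arrays biological replicates of 1 cell line and do not mention separate cultures. The p-values therefore reflect array-to-array spread, which may be technical. SRF itself had mean log2 signals of 4.87 ± 0.13 (SRF siRNA) and 6.30 ± 0.18 (control siRNA) with R1881, and of 4.74 ± 0.28 (SRF siRNA) and 6.07 ± 0.14 (control siRNA) with vehicle (SD, n = 3 each). The silenced cells therefore kept 36.9% of the SRF signal with R1881 and 39.5% with vehicle, and silencing was not complete. Pearson correlations over probe sets were 0.996 to 0.998 within groups and 0.966 to 0.988 between them, and 37.3% to 38.0% of probe sets were above 4 on each array. The 9 luminal prostate genes with a probe set here were above 4 on every array, and 4 of 4 leukocyte genes were above 4 on none. Of basal or mesenchymal genes KRT5, KRT14 and CDH2 were above 4 on no array and VIM on every array. Of 6 fibroblast genes COL1A2, DCN, LUM and PDGFRB were above 4 on no array, COL1A1 was on every array and COL3A1 on 7.

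The promoters of the genes on which the results turn are shown first, because CHR and CCAAT matches were common to much of the list. Each line runs 5′ to 3′ on the strand of the gene, from 130 bases before to 20 bases after a RefSeq start site in GRCh38.p14, and capitals mark matches on either strand to the CHR (TTTGAA or TTCGAA) and the CCAAT box (CCAAT). NUSAP1 and BUB1B fell with R1881 to under 4 in control siRNA cells, CDC20 fell with both siRNAs with no called difference, KIF11 rose with SRF siRNA in vehicle, and CENPN and NCAPD3 rose with R1881. The windows are chr15:41332751-41332900 (plus strand) for NUSAP1, chr15:40160939-40161088 (plus strand) for BUB1B, chr1:43358851-43359000 (plus strand) for CDC20 and chr10:92593000-92593149 (plus strand) for KIF11. They are chr16:81007084-81007233 (plus strand) for CENPN, chr11:134225442-134225591 (minus strand) for the first start of NCAPD3 and chr11:134223948-134224097 (minus strand) for its second.
NUSAP1: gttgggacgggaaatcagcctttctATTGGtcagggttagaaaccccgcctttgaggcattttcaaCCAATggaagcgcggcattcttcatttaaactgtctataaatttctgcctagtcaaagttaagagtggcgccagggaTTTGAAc
BUB1B: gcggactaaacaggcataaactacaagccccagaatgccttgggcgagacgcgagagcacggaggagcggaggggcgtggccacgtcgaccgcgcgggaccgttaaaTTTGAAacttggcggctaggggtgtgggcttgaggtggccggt
CDC20: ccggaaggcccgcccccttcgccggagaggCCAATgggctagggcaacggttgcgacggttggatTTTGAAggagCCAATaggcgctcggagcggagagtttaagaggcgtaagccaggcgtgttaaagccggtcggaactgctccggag
KIF11: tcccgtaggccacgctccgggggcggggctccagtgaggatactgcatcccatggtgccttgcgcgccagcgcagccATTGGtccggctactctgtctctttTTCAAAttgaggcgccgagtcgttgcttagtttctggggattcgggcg
CENPN: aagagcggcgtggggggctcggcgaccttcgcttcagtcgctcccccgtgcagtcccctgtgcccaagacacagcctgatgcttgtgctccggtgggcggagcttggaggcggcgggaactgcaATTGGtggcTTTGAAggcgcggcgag
NCAPD3 first start: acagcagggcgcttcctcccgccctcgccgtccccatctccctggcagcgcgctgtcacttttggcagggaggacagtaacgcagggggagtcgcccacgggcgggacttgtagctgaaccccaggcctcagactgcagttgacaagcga
NCAPD3 second start: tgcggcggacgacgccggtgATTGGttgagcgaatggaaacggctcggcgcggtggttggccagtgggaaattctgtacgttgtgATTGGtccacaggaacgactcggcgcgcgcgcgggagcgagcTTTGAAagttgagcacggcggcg

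CDC20 held a CHR from 65 bases before the start, between CCAAT boxes at -100 and -55. In KIF11 the CHR began at -28 and the CCAAT box at -53. BUB1B held a CHR at -23 and no CCAAT box in the window, and in NUSAP1 the CHR lay at 14 bases after the start, with CCAAT boxes at -105 and -64. CENPN, one of the genes that rose, held a CCAAT box at -6 and a CHR at 4. The first start of NCAPD3 held neither motif, and the second held a CHR at -3 and CCAAT boxes at -110 and -45. In these windows no CHR match overlapped a CCAAT match. The probe set of NCAPD3 does not say which start was used, and a match is a description of letters, not of binding.

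Promoters were read over the 300 bases from 250 before to 50 after each start. The RefSeq promoter set used here held none for AURKA, BUB3, TTK, UBE2C, BIRC5, TPX2 and FOXM1. For the other 47 of the 54 genes it held 55 promoters. A CHR was present in 74.5% of these promoters, against 16.4% of all 35116 promoters in the table, and a CCAAT box in 74.5% against 34.6%. Both motifs stood in the same promoter in 60% of the mitotic set and in 6.38% of all promoters. By gene, 38 of 47 had a CHR, 37 a CCAAT box and 31 both in 1 promoter. An E2F-like site (TTCCCGC or TTGGCGC) was found in 23.6% against 9.23%. The CArG box of SRF was found in 0 of the 55 promoters, against 1.29% of all promoters, and the androgen receptor half-site AGAACA in 7.27%, against 14.8%, all motifs being read on both strands. Of 68 promoters of 53 other mitotic genes 50% held a CHR and 58.8% a CCAAT box. The CHR share was 16.7% of 12 cohesin promoters and 14.8% of 27 promoters of anaphase-promoting complex core subunits.

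**Figure D1:**
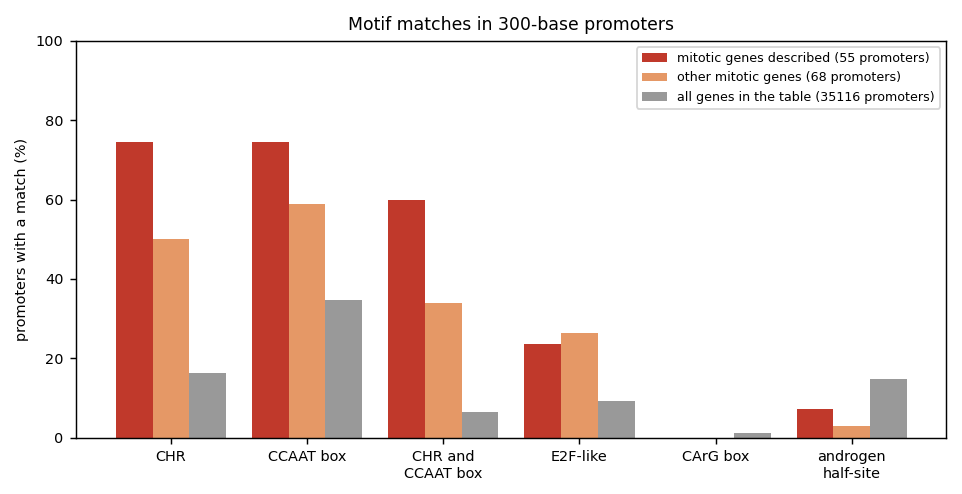
Share of 300-base promoters (vertical axis, %) with at least 1 match to each motif (horizontal axis), for 47 of the 54 mitotic genes (55 promoters, red), other mitotic genes (68 promoters, orange) and all genes in the table (35116 promoters, grey). The CHR and CCAAT bars of the mitotic genes both stand at 74.5%, against 16.4% and 34.6% for all promoters, and no CArG box was found in the 55.

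R1881 lowered most of these genes with either siRNA, and SRF siRNA raised most of them with either treatment. In SRF siRNA cells 43 of the 50 tested genes fell with R1881 and 2 rose, NCAPD3 and CENPN, where 27.7% of all tested genes fell and 25.5% rose at the same threshold, an adjusted p under 0.05 from limma. In control siRNA cells 43 fell and the same 2 rose, where 33.8% of all genes fell and 26.9% rose. The median log2 change was -1.73 in SRF siRNA cells (-0.03 over all tested genes) and -1.36 in control siRNA cells (-0.05 over all). Falls of at least 2-fold were called for 38 of the 50 in SRF siRNA cells (5.1% of all genes) and for 30 in control siRNA cells (7.06% of all). NCAPD3 and CENPN rose by at least 2-fold with either siRNA, as did 5.56% of all genes in SRF siRNA cells and 7.08% in control siRNA cells. Since 6 of the 50 were tested only through their level in SRF siRNA with vehicle, which favours a fall with R1881 in SRF siRNA cells, the fit was also made without a filter. All 54 genes then gave 45 lower and 2 higher in SRF siRNA cells (13.4% and 12.5% of 19775 genes), with a median of -1.66, and 38 lower and 2 higher in control siRNA cells (16.7% and 13.5%), with a median of -1.11.

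With R1881 and vehicle arrays compared directly, 43 of the 50 genes had lower R1881 arrays without overlap in SRF siRNA cells (30.9% of all tested genes), and 44 in control siRNA cells (37.1% of all). The same 2 genes were higher without overlap, as were 28.3% of all genes in SRF siRNA cells and 30.3% in control siRNA cells. SRF siRNA with vehicle had the highest mean of the 4 groups for 46 of the 50 genes, and control siRNA with R1881 the lowest for 47. For 32 genes the means ran, from high to low, SRF siRNA with vehicle, control siRNA with vehicle, SRF siRNA with R1881, control siRNA with R1881. For another 13 the middle groups changed places, a pair that was not among the comparisons tested. Group means under 4, near the bottom of the signal scale, were seen for 13 of the 50 genes in SRF siRNA with R1881, 32 in control siRNA with R1881, 0 in SRF siRNA with vehicle and 11 in control siRNA with vehicle. A log2 change that involves such a group is a difference of fitted signals, and folds against it are given as at least the value with signals under 4 set to 4. With signals so set, R1881 lowered 32 and raised 2 of the 50 genes in control siRNA cells, where 60.0% of all genes were called in either direction. In SRF siRNA cells it then lowered 42 and raised 2, where 52.9% of all genes were called. In bulk RNA fewer dividing cells and less mitotic mRNA per dividing cell cannot be told apart.

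**Figure D2:**
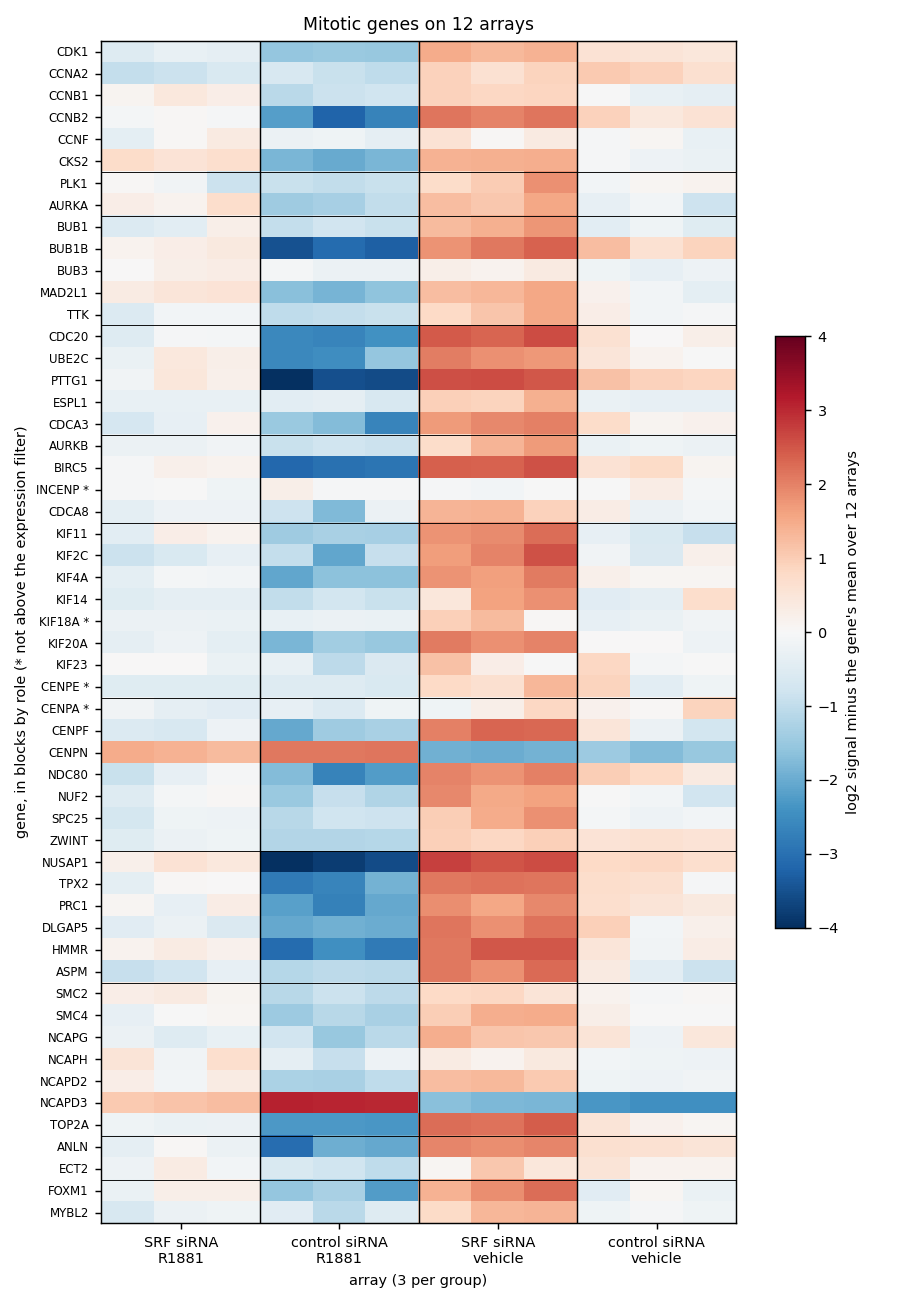
Log2 signal of each of the 54 genes (rows, in blocks by role) on each of the 12 arrays (columns, 3 per group), after subtraction of the gene's mean over the 12 arrays, from blue (below the mean) to red (above). Most rows are red in SRF siRNA with vehicle and blue in control siRNA with R1881, and NCAPD3 and CENPN run the other way; an asterisk marks the 4 genes that were not tested.

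Of the cyclin and kinase group (CDK1, CCNA2, CCNB1, CCNB2, CCNF and CKS2) 5 of 6 fell with R1881 with either siRNA. CDK1, the kinase that drives entry into mitosis, fell by 1.78 ± 0.07 on the log2 scale in SRF siRNA cells and by 2.03 ± 0.07 in control siRNA cells (SE; limma adjusted p = 1.91e-09 and 4.48e-10). CCNB2, a B-type cyclin, had log2 values of 6.14, 6.26 and 6.17 in SRF siRNA cells with R1881, against 8.34, 8.19 and 8.34 in SRF siRNA cells with vehicle. With control siRNA the values were 4.02, 3.02 and 3.54 with R1881, against 7.12, 6.63 and 6.80 with vehicle. R1881 arrays lay below vehicle arrays with either siRNA, and lowest of all in control siRNA cells. CCNB2 fell by 2.10 ± 0.20 in SRF siRNA cells and by 3.32 ± 0.20 in control siRNA cells, and the difference of the R1881 effects, SRF siRNA minus control siRNA, was 1.22 ± 0.28 (limma adjusted p = 0.00802). CKS2, a small subunit that binds the kinase, had log2 values of 10.48, 10.28 and 10.42 in SRF siRNA cells with R1881, against 11.12, 11.15 and 11.18 in SRF siRNA cells with vehicle. The control siRNA cells gave 7.93, 7.71 and 7.91 with R1881, against 9.69, 9.54 and 9.48 with vehicle. All CKS2 arrays were well up the scale, and R1881 arrays were again below vehicle arrays. CKS2 fell by 0.76 ± 0.09 in SRF siRNA cells and by 1.72 ± 0.09 in control siRNA cells, a difference of 0.96 ± 0.12 (limma adjusted p = 0.000159). CCNF, a cyclin that serves as an F-box protein, was not called, at -0.31 ± 0.18 in SRF siRNA cells and -0.16 ± 0.18 in control siRNA cells. The kinases PLK1 and AURKA, which act on centrosomes and the spindle, fell with both siRNAs, by 0.82 to 1.5. PLK1 was tested only through its level in SRF siRNA with vehicle. Its control siRNA means were 2.44 (R1881) and 3.39 (vehicle), both under 4.

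The spindle assembly checkpoint holds back anaphase while kinetochores lack microtubules. Of its 5 genes 4 fell with R1881 with either siRNA, and BUB3, which carries BUB1 and BUB1B to kinetochores, was not called on the probe set used here, at -0.06 ± 0.09 in SRF siRNA cells and 0.05 ± 0.09 in control siRNA cells. Of its other 3 passing probe sets 2 were called lower with both siRNAs, at -0.38 and -0.54 in SRF siRNA cells and at -0.29 and -0.30 in control siRNA cells. BUB1B encodes BUBR1, part of the complex that inhibits CDC20, and had log2 values of 5.90, 6.04 and 6.17 in SRF siRNA cells with R1881, against 7.58, 7.87 and 8.12 in SRF siRNA cells with vehicle. Its values with control siRNA were 2.30, 2.70 and 2.52 with R1881, against 7.01, 6.4 and 6.66 with vehicle. The control siRNA arrays with R1881 stood alone near the bottom of the scale. BUB1B fell by 1.82 ± 0.17 in SRF siRNA cells (3.52-fold lower) and by 4.18 ± 0.17 in control siRNA cells (at least 6.45-fold lower), a difference of 2.36 ± 0.24 (limma adjusted p = 3.21e-05). MAD2L1, the MAD2 protein that joins CDC20 in the same inhibitory complex, had log2 values of 8.88, 9.03 and 9.10 in SRF siRNA cells with R1881, against 9.76, 9.86 and 10.08 in SRF siRNA cells with vehicle. In control siRNA cells its values were 6.87, 6.67 and 6.92 with R1881, against 8.70, 8.42 and 8.16 with vehicle. No R1881 array reached its vehicle arrays. MAD2L1 fell by 0.90 ± 0.13 in SRF siRNA cells and by 1.61 ± 0.13 in control siRNA cells, a difference of 0.71 ± 0.19 (limma adjusted p = 0.0175). The checkpoint kinase BUB1, tested only through its level in SRF siRNA with vehicle, fell by 1.74 ± 0.19 in SRF siRNA cells and by 0.50 ± 0.19 in control siRNA cells (-1.24 ± 0.26, limma adjusted p = 0.00511), with means of 2.78 (R1881) and 3.28 (vehicle) in control siRNA cells.

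CDC20, UBE2C, PTTG1 and ESPL1 act at the metaphase to anaphase transition, and CDCA3 was grouped with them. All 5 fell with R1881 in SRF siRNA cells and 4 in control siRNA cells. CDC20, the activator of the anaphase-promoting complex, had log2 values of 4.78, 5.23 and 5.21 in SRF siRNA cells with R1881, against 7.74, 7.61 and 7.88 in SRF siRNA cells with vehicle. With control siRNA the values were 2.69, 2.65 and 2.88 with R1881, against 5.90, 5.31 and 5.51 with vehicle. CDC20 was lower with R1881 on every array of either siRNA. It fell by 2.67 ± 0.16 in SRF siRNA cells and by 2.83 ± 0.16 in control siRNA cells, and the difference was not called, at 0.16 ± 0.22 (limma adjusted p = 0.638). With signals under 4 set to 4 the CDC20 difference was -1.10, so it depends on signals near the bottom of the scale. PTTG1 is securin, the substrate whose destruction frees separase, and had log2 values of 6.49, 7.09 and 6.86 in SRF siRNA cells with R1881, against 9.21, 9.24 and 9.14 in SRF siRNA cells with vehicle. The control siRNA cells gave 2.66, 3.13 and 3.06 with R1881, against 7.81, 7.57 and 7.49 with vehicle. Its control siRNA arrays with R1881 were under 4 and far below the other 3 groups. PTTG1 fell by 2.38 ± 0.16 in SRF siRNA cells (5.21-fold lower) and by 4.67 ± 0.16 in control siRNA cells (at least 12.3-fold lower), a difference of 2.29 ± 0.22 (limma adjusted p = 2.14e-05). ESPL1, separase itself, was tested only through its level in SRF siRNA with vehicle, where its mean was 4.28. It fell by 1.40 ± 0.12 in SRF siRNA cells and was not called in control siRNA cells, at -0.16 ± 0.12, with means of 2.71 (R1881) and 2.87 (vehicle) there and a difference of -1.24 ± 0.17 (limma adjusted p = 0.000328). UBE2C, the ubiquitin-conjugating enzyme of the complex, and CDCA3, which triggers mitotic entry, fell by 1.73 to 2.41 with no called difference between the siRNAs.

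The chromosomal passenger complex corrects faulty attachments through the kinase AURKB. Its 3 tested genes, AURKB, BIRC5 and CDCA8, fell with either siRNA, and INCENP stayed near its floor, with group means of 2.27 to 2.43. AURKB was tested only through its level in SRF siRNA with vehicle, and its control siRNA means were 3.15 (R1881) and 3.76 (vehicle), both under 4. BIRC5 encodes survivin, which brings the complex to centromeres, and had log2 values of 5.02, 5.28 and 5.19 in SRF siRNA cells with R1881, against 7.45, 7.41 and 7.60 in SRF siRNA cells with vehicle. Its values with control siRNA were 1.92, 2.08 and 2.13 with R1881, against 5.63, 5.84 and 5.18 with vehicle. The lowest of the 4 groups was again control siRNA with R1881, and the arrays of each siRNA did not overlap between treatments. BIRC5 fell by 2.32 ± 0.14 in SRF siRNA cells and by 3.50 ± 0.14 in control siRNA cells, a difference of 1.18 ± 0.20 (limma adjusted p = 0.00133). A second BIRC5 probe set of lower signal gave a difference of -2.11, so the sign of this difference depends on the probe set. The second probe set had -2.44 in SRF siRNA cells and -0.33 in control siRNA cells, where its means were 2.47 (R1881) and 2.80 (vehicle).

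Kinesins move chromosomes and slide or shorten spindle microtubules. Of 6 tested kinesins 5 fell with R1881 with each siRNA, KIF14 (which binds PRC1) missing the threshold in control siRNA cells (-0.83 ± 0.34, limma adjusted p = 0.051) and KIF23 (a subunit of centralspindlin) in SRF siRNA cells (-0.54 ± 0.31, limma adjusted p = 0.158). KIF11, the motor that separates the spindle poles, had log2 values of 3.53, 4.21 and 4.08 in SRF siRNA cells with R1881, against 5.76, 5.84 and 6.19 in SRF siRNA cells with vehicle. In control siRNA cells its values were 2.53, 2.64 and 2.61 with R1881, against 3.6, 3.34 and 3.01 with vehicle. Only the SRF siRNA arrays with vehicle stood clear of the low range. KIF11 fell by 1.99 ± 0.18 in SRF siRNA cells and by 0.73 ± 0.18 in control siRNA cells, a difference of -1.26 ± 0.26 (limma adjusted p = 0.0043). With signals under 4 set to 4 its change was -1.83 in SRF siRNA cells and 0 in control siRNA cells. KIF2C, a kinesin that depolymerises microtubule ends at centromeres, had log2 values of 3.46, 3.70 and 3.99 in SRF siRNA cells with R1881, against 5.99, 6.30 and 6.86 in SRF siRNA cells with vehicle. With control siRNA the values were 3.36, 2.25 and 3.40 with R1881, against 4.18, 3.74 and 4.53 with vehicle. Its replicates were among the more scattered, though treatments did not overlap within either siRNA. KIF2C fell by 2.66 ± 0.31 in SRF siRNA cells and by 1.14 ± 0.31 in control siRNA cells, a difference of -1.52 ± 0.44 (limma adjusted p = 0.0275). Set to 4 in the same way, it was -2.38 in SRF siRNA cells and not called in control siRNA cells, at -0.24 (limma adjusted p = 0.278). Without a filter on low values KIF18A was -0.99 and CENPE -1.41 with R1881 in SRF siRNA cells (limma adjusted p = 0.0116 and 0.00519), and neither passed in control siRNA cells (-0.02 and -0.64).

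Of 6 tested genes of the centromere and kinetochore 5 fell with either siRNA and CENPN rose. CENPF, a large kinetochore protein that peaks in G2 and mitosis, had log2 values of 4.39, 4.29 and 4.73 in SRF siRNA cells with R1881, against 6.95, 7.25 and 7.21 in SRF siRNA cells with vehicle. The control siRNA cells gave 2.87, 3.50 and 3.61 with R1881, against 5.40, 4.70 and 4.19 with vehicle. The control siRNA vehicle arrays were spread from 4.19 to 5.40 and the R1881 arrays lay below them. CENPF fell by 2.67 ± 0.27 in SRF siRNA cells and by 1.44 ± 0.27 in control siRNA cells, a difference of -1.23 ± 0.38 (limma adjusted p = 0.0353). ZWINT, a kinetochore scaffold that recruits the ZW10 complex, had log2 values of 7.65, 7.92 and 7.96 in SRF siRNA cells with R1881, against 9.09, 8.97 and 9.09 in SRF siRNA cells with vehicle. Its values with control siRNA were 6.96, 6.97 and 7.0 with R1881, against 8.69, 8.75 and 8.69 with vehicle. ZWINT replicates were tight and the treatments separate. ZWINT fell by 1.21 ± 0.08 in SRF siRNA cells and by 1.73 ± 0.08 in control siRNA cells, a difference of 0.52 ± 0.12 (limma adjusted p = 0.00732). NDC80, NUF2 and SPC25, subunits of the complex that grips microtubules, fell by 1.79 to 2.36 in SRF siRNA cells and by 0.78 to 2.93 in control siRNA cells. SPC25, with the fall of 0.78, was tested only through its level in SRF siRNA with vehicle. Its control siRNA means were 2.90 (R1881) and 3.68 (vehicle), both under 4.

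All 6 spindle microtubule proteins (NUSAP1, TPX2, PRC1, DLGAP5, HMMR and ASPM) fell with either siRNA. NUSAP1, which bundles and stabilises microtubules near chromosomes, had log2 values of 6.83, 7.22 and 7.07 in SRF siRNA cells with R1881, against 9.37, 9.15 and 9.26 in SRF siRNA cells with vehicle. In control siRNA cells its values were 2.64, 2.83 and 3.07 with R1881, against 7.45, 7.47 and 7.30 with vehicle. Its control siRNA arrays with R1881 were again far below the other 3 groups. NUSAP1 fell by 2.21 ± 0.12 in SRF siRNA cells (4.64-fold lower) and by 4.56 ± 0.12 in control siRNA cells (at least 10.6-fold lower), a difference of 2.34 ± 0.17 (limma adjusted p = 2.42e-06). PRC1, the crosslinker of the central spindle, had log2 values of 6.09, 5.68 and 6.30 in SRF siRNA cells with R1881, against 7.89, 7.56 and 7.94 in SRF siRNA cells with vehicle. With control siRNA the values were 3.85, 3.30 and 3.98 with R1881, against 6.67, 6.52 and 6.41 with vehicle. The treatments did not overlap within either siRNA. PRC1 fell by 1.77 ± 0.19 in SRF siRNA cells and by 2.82 ± 0.19 in control siRNA cells, a difference of 1.05 ± 0.27 (limma adjusted p = 0.0139). HMMR, a hyaluronan receptor that also works at spindle poles, had log2 values of 5.84, 6.05 and 5.87 in SRF siRNA cells with R1881, against 7.80, 8.20 and 8.19 in SRF siRNA cells with vehicle. The control siRNA cells gave 2.63, 3.24 and 2.87 with R1881, against 6.19, 5.58 and 6.0 with vehicle. Arrays of R1881 lay below those of vehicle with either siRNA. HMMR fell by 2.14 ± 0.18 in SRF siRNA cells and by 3.01 ± 0.18 in control siRNA cells, a difference of 0.86 ± 0.25 (limma adjusted p = 0.0279) that was -0.32 on its second probe set. ASPM, a spindle pole protein whose loss causes microcephaly, had log2 values of 2.70, 2.86 and 3.30 in SRF siRNA cells with R1881, against 5.74, 5.46 and 5.90 in SRF siRNA cells with vehicle. Its values with control siRNA were 2.49, 2.60 and 2.56 with R1881, against 4.0, 3.2 and 2.76 with vehicle. Among these arrays only SRF siRNA with vehicle stood clearly above the low range. ASPM fell by 2.75 ± 0.25 in SRF siRNA cells and by 0.77 ± 0.25 in control siRNA cells, a difference of -1.98 ± 0.36 (limma adjusted p = 0.00201). With signals under 4 set to 4 its change was -1.70 in SRF siRNA cells and 0 in control siRNA cells.

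Condensins compact chromosomes. SMC2 and SMC4 are the ATPase pair of both complexes, NCAPG, NCAPH and NCAPD2 belong to condensin I, and NCAPD3 to condensin II. Of the 6 subunits 4 fell with either siRNA, NCAPH was not called with either, and NCAPD3 rose with both. SMC2 had log2 values of 6.30, 6.42 and 6.17 in SRF siRNA cells with R1881, against 6.84, 6.87 and 6.57 in SRF siRNA cells with vehicle. In control siRNA cells its values were 4.94, 5.18 and 5.01 with R1881, against 6.20, 6.0 and 6.10 with vehicle. The R1881 and vehicle arrays of SRF siRNA cells lay close together without overlap. SMC2 fell by 0.46 ± 0.10 in SRF siRNA cells and by 1.05 ± 0.10 in control siRNA cells, a difference of 0.59 ± 0.15 (limma adjusted p = 0.0121). With its passing probe sets averaged the SMC2 difference was not called, at 0.34 (limma adjusted p = 0.0712). TOP2A, the topoisomerase that untangles sister chromatids, fell by 2.5 ± 0.10 in SRF siRNA cells and by 2.55 ± 0.10 in control siRNA cells, without a called difference. Of the cytokinesis genes, ANLN (a scaffold of the contractile ring) fell by 2.11 in SRF siRNA cells and by 2.93 in control siRNA cells and ECT2 (the exchange factor that activates RhoA there) fell by 1.07 in control siRNA cells and missed the threshold in SRF siRNA cells (-0.52 ± 0.22, limma adjusted p = 0.0685). Of the activators of the programme FOXM1 fell by 1.78 ± 0.26 in SRF siRNA cells and by 1.48 ± 0.26 in control siRNA cells. Its control siRNA means were 2.33 (R1881) and 3.81 (vehicle), both under 4. MYBL2, which encodes B-MYB, fell by 1.5 ± 0.19 in SRF siRNA cells and by 0.55 ± 0.19 in control siRNA cells, a difference of -0.95 ± 0.27 (limma adjusted p = 0.0228).

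NCAPD3 and CENPN went against the rest of the list. NCAPD3 had log2 values of 10.48, 10.58 and 10.66 in SRF siRNA cells with R1881, against 7.76, 7.62 and 7.59 in SRF siRNA cells with vehicle. With control siRNA the values were 12.49, 12.47 and 12.45 with R1881, against 7.10, 6.98 and 6.97 with vehicle. Every R1881 array was above every vehicle array, and its R1881 arrays were higher with control siRNA than with SRF siRNA. NCAPD3 rose by 2.92 ± 0.07 in SRF siRNA cells (7.55-fold higher, limma adjusted p = 3.40e-11) and by 5.46 ± 0.07 in control siRNA cells (43.9-fold higher, limma adjusted p = 4.63e-13). The difference of -2.54 ± 0.10 had the smallest p of the list (limma adjusted p = 3.64e-08). CENPN, which binds CENPA nucleosomes, had log2 values of 12.04, 11.95 and 11.80 in SRF siRNA cells with R1881, against 8.62, 8.57 and 8.68 in SRF siRNA cells with vehicle. The control siRNA cells gave 12.68, 12.65 and 12.69 with R1881, against 9.11, 8.81 and 9.04 with vehicle. R1881 arrays were again above vehicle arrays with either siRNA. CENPN rose by 3.31 ± 0.09 in SRF siRNA cells (9.89-fold higher) and by 3.69 ± 0.09 in control siRNA cells (12.9-fold higher). Its difference of -0.38 ± 0.12 was close to the threshold (limma adjusted p = 0.0431). The other 2 passing CENPN probe sets rose too, by 4.49 and 4.74 in SRF siRNA cells and by 5.23 and 5.64 in control siRNA cells. The tested genes whose 4 group means correlated most with those of NCAPD3 were SLC4A1AP, MARCHF2, LMAN1, SPATA7 and CBLL1 (Pearson r of at least 0.999 over 4 means, a description), and none of them is on the mitotic list. Their ranges were smaller than that of NCAPD3: CBLL1, the widest, had means of 9.25 (SRF siRNA with R1881), 10.10 (control siRNA with R1881), 8.12 (SRF siRNA with vehicle) and 7.89 (control siRNA with vehicle).

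**Figure D3:**
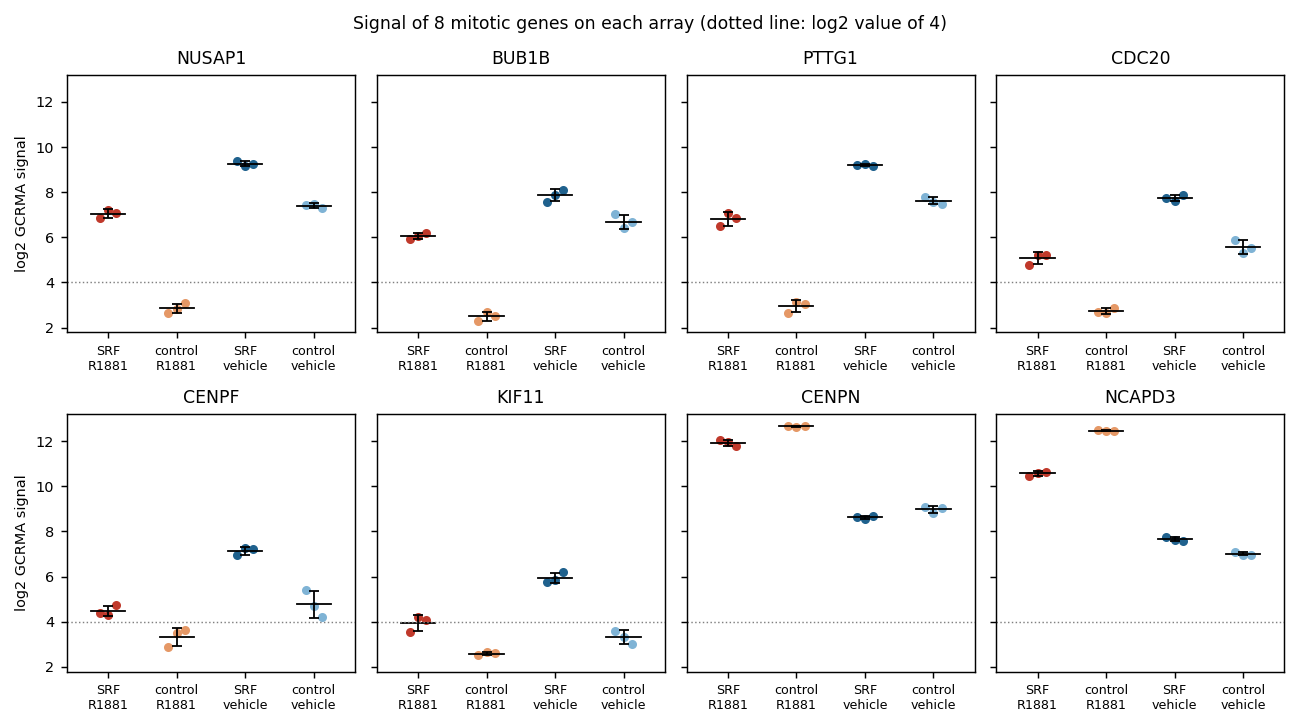
Log2 GCRMA signal (vertical axis) of 8 mitotic genes on each array (points, 3 per group), with the group mean (long bar) and SD (whiskers), and the dotted line at 4. NUSAP1, BUB1B and PTTG1 are under 4 only in control siRNA with R1881, CENPF and KIF11 are highest in SRF siRNA with vehicle, and CENPN and NCAPD3 are highest with R1881.

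Set side by side, the difference of the R1881 effects was called for 24 of the 50 genes, where 23.8% of all tested genes were called, with 11 above 0 (13.2% of all) and 13 below 0 (10.5% of all). The median difference was -0.03, and 0.03 over all tested genes. It was at least 2-fold above 0 for 6 genes (2.59% of all) and at least 2-fold below 0 for 8 (2.42% of all). The 6 were BUB1B, NUSAP1, PTTG1, CCNB2, BIRC5 and PRC1, each with a control siRNA mean under 4 with R1881. With values under 4 set to 4 their differences were 0.87, 1.19, 1.24, 0.74, -0.78 and 0.76, in that order. The 11 above 0, for which R1881 lowered the gene less in SRF siRNA cells, were BUB1B, NUSAP1, PTTG1, CCNB2, BIRC5, PRC1, CKS2, HMMR, MAD2L1, SMC2 and ZWINT. Of the 13 below 0, NCAPD3 and CENPN rose less in SRF siRNA cells. The other 11, ASPM, KIF2C, KIF11, ESPL1, BUB1, CENPF, SPC25, NUF2, MYBL2, AURKB and KIF20A (a kinesin of the central spindle), fell more in SRF siRNA cells. Of these, ESPL1, BUB1, SPC25 and AURKB were tested only through their level in SRF siRNA with vehicle, which favours a difference below 0. These 2 sets of 11 differed in level: mean signals in control siRNA cells with vehicle were 5.55 to 9.57 (median 6.85) for the set above 0 and 2.87 to 5.35 (median 3.76) for the set below 0. In control siRNA cells with R1881 the mean was under 4 for 7 of the 11 above 0 and for 10 of the 11 below 0. In control siRNA cells with vehicle it was under 4 for 0 of the 11 above 0 and for 6 of the 11 below 0. Those 6 were ESPL1, BUB1, SPC25, AURKB, ASPM and KIF11. Their control siRNA means were under 4 with both treatments, so a fall with R1881 could hardly be seen there. With values under 4 set to 4, 9 genes were above 0 and 19 below 0, where 24.9% of all genes were called in either direction. Without a filter 10 were above 0 and 6 below 0 of 54 (6.07% and 5.09% of all 19775 genes), and with a filter at 6 the counts were 11 and 6 of 34, where 27.8% of all genes were called. The called differences of CENPN, CENPF, HMMR and KIF2C lost their call when any of 6 to 9 single arrays was left out. Among the 26 genes with no called difference the 95% interval was -0.32 to 0.64 for CDC20 and -0.27 to 0.38 for TOP2A. Both intervals rest on control siRNA means under 4 with R1881 (2.74 and 3.32). With values under 4 set to 4 the CDC20 difference was called, at -1.10 (limma adjusted p = 0.00231).

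**Figure D4:**
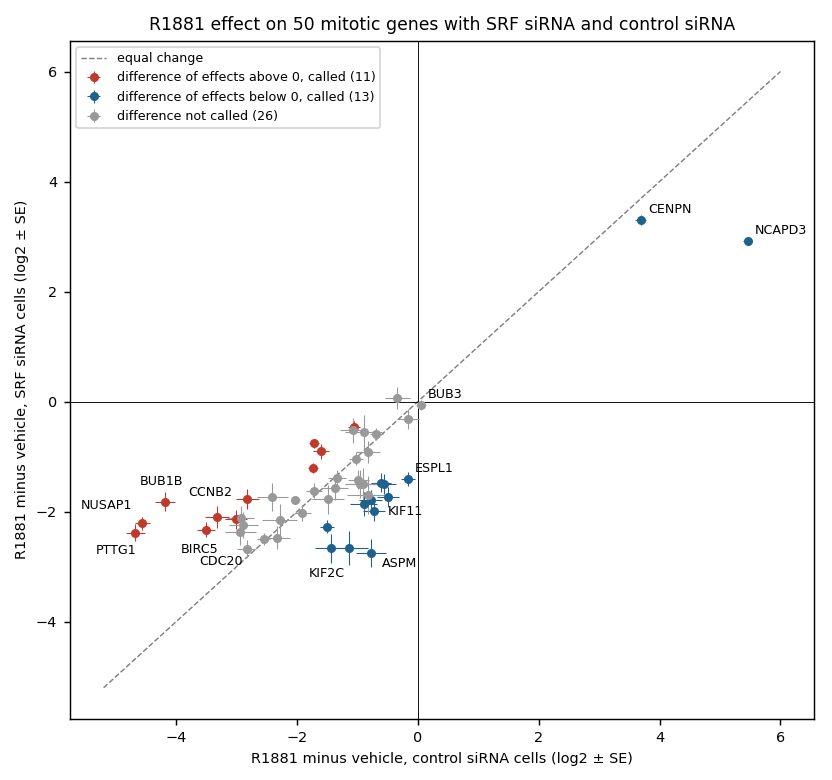
R1881 minus vehicle (log2 change ± SE) of the 50 tested genes in SRF siRNA cells (vertical axis) and in control siRNA cells (horizontal axis), coloured by the call on the difference, with the dashed line at equal change. The 11 red genes lie above the line at falls of -1.05 to -4.67 in control siRNA cells, and 11 of the 13 blue genes lie below it at -0.16 to -1.51, with CENPN and NCAPD3 at the upper right.

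Silencing SRF raised the list in vehicle. Of the 50 genes 44 rose and CENPN fell, where 30.7% of all tested genes rose and 25% fell. The median change was 1.42 (0.04 over all tested genes), 38 of the 50 rose at least 2-fold (5.09% of all), and 0 fell as far (4.19% of all). Without a filter 45 of the 54 rose and 1 fell (14.9% and 12.4% of all 19775 genes), with a median of 1.36. The SRF siRNA arrays lay above the control siRNA arrays without overlap for 44 genes (33.8% of all) and below them for 1, CENPN (27.4% of all). KIF11 rose by 2.61 ± 0.18 (at least 3.81-fold higher, limma adjusted p = 3.31e-07), ASPM by 2.38 ± 0.25, CENPF by 2.37 ± 0.27 and KIF2C by 2.24 ± 0.31. With signals under 4 set to 4 these changes were 1.93 for KIF11, 1.70 for ASPM, 2.37 for CENPF and 2.15 for KIF2C, and that of CDC20 was 2.17. PLK1, BUB1, TTK, ESPL1, AURKB and SPC25 also rose, but were tested only through their level in SRF siRNA with vehicle, the high group here. Of the other checkpoint genes BUB1B, MAD2L1 and BUB3 rose, BUB3 by 0.48 ± 0.09 (limma adjusted p = 0.000614). So did CDC20 (2.17 ± 0.16), UBE2C and PTTG1 of the anaphase transition, CDCA3, and the 6 spindle proteins (1.26 to 2.38). BIRC5 (1.94 ± 0.14) and CDCA8 (1.25 ± 0.30) of the passenger complex rose too. FOXM1 rose by 2.05 ± 0.26 and MYBL2 by 1.27 ± 0.19. The 5 genes not called were CCNA2 (-0.05 ± 0.14), CCNF (0.42 ± 0.18), KIF23 (0.22 ± 0.31), NCAPH (0.45 ± 0.21) and ECT2 (0.26 ± 0.22). A second probe set of CCNA2, the S phase and early mitotic cyclin, rose by 0.49. NCAPD3 rose by 0.64 ± 0.07 (limma adjusted p = 1.74e-05). CENPN fell by 0.36 ± 0.09 (limma adjusted p = 0.00409) on the probe set used here, but rose by 0.74 and 0.62 on its other 2 passing probe sets, so that its direction depends on the probe set.

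With R1881, 38 of the 50 genes were higher in SRF siRNA cells and 2 lower, where 33.6% of all tested genes were higher and 25.4% lower. The median was 1.19 (0.06 over all), and without a filter 37 of the 54 were higher and 2 lower (16.4% and 12.6% of all 19775 genes), with a median of 1.14. Increases of at least 2-fold were called for 29 genes (6.71% of all) and a decrease of that size for 1, NCAPD3 (4.9% of all). The arrays did not overlap for 44 genes in the higher direction (37.7% of all) and for 2 in the lower (28.8% of all). The changes in fitted signal included those of NUSAP1, 4.20 ± 0.12 (at least 8.25-fold higher, limma adjusted p = 2.81e-10), PTTG1, 3.87 ± 0.16 (at least 7.05-fold higher), BUB1B, 3.53 ± 0.17 (at least 4.11-fold higher), and BIRC5, 3.12 ± 0.14 (at least 2.24-fold higher). Their control siRNA means with R1881 were under 4, as were those of 32 of the 50 genes. With signals under 4 set to 4, 29 genes were higher and 2 lower, where 58.5% of all genes were called in either direction. CCNB2 was higher by 2.66 ± 0.20 and HMMR by 3.00 ± 0.18, also with control siRNA means under 4 (3.53 and 2.92). With signals under 4 set to 4 they were higher by 2.18 and 1.92. CKS2 was higher by 2.54 ± 0.09 and MAD2L1 by 2.18 ± 0.13, both being above 4 on every array. The 10 not called were CCNA2, CCNF, PLK1, ESPL1, CDCA8 (borealin, a passenger subunit), KIF2C, KIF14, KIF23, ASPM and MYBL2, at 0.05 to 0.71. NCAPD3 fell by 1.90 ± 0.07 (limma adjusted p = 2.30e-09) and CENPN by 0.74 ± 0.09 (limma adjusted p = 1.56e-05). The other CENPN probe sets gave 0.00 and -0.28. The comparisons share arrays in pairs, so their calls are not independent of each other.

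**Figure D5:**
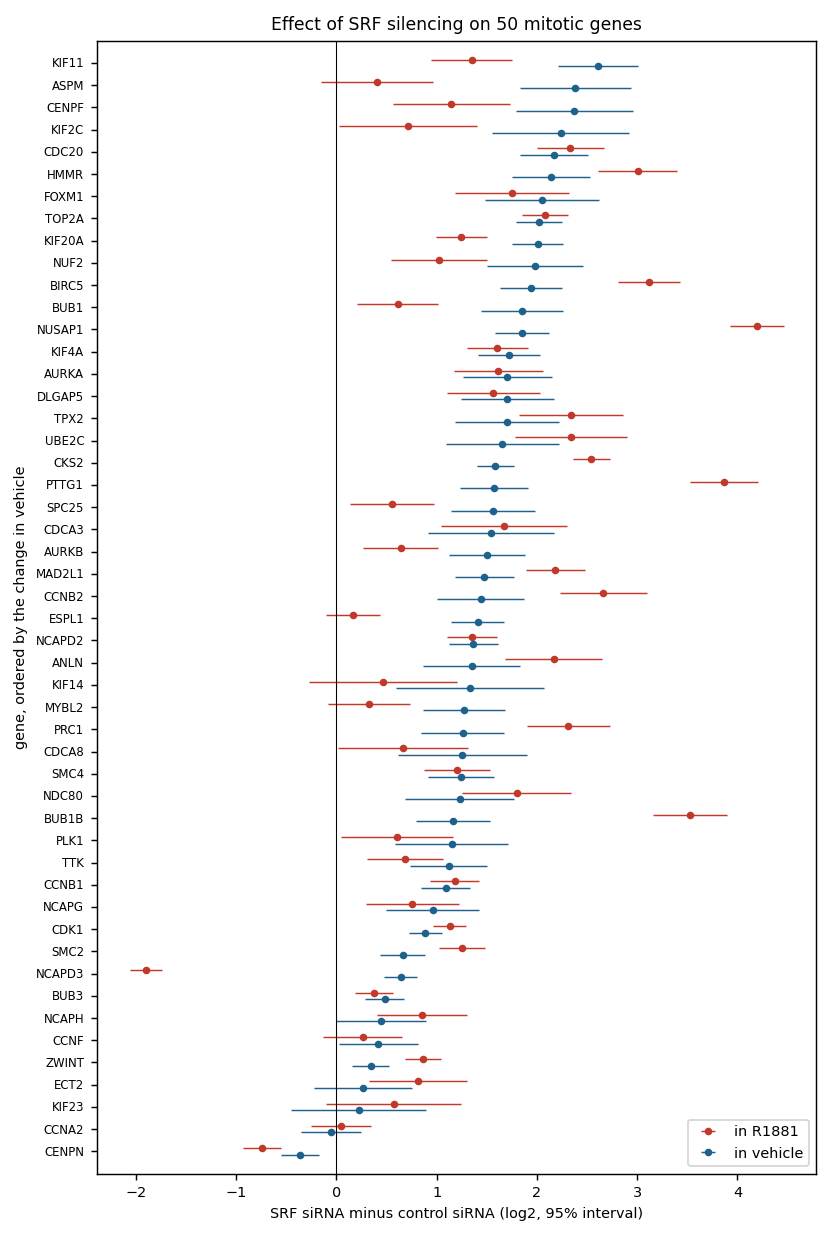
SRF siRNA minus control siRNA (log2 change with 95% interval, horizontal axis) for each of the 50 tested genes (rows, ordered by the change in vehicle), in R1881 (red) and in vehicle (blue). Most intervals lie above 0 in both; NUSAP1, PTTG1, BUB1B and BIRC5 stand at 3.12 to 4.20 in R1881, with control siRNA means under 4, and NCAPD3 (-1.90) and CENPN (-0.74) lie below 0 there.

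A list of 67 other mitotic genes, 55 of them tested, was read the same way. R1881 lowered 40 and raised 2 in SRF siRNA cells, and lowered 32 and raised 3 in control siRNA cells, with medians of -0.85 in SRF siRNA cells (-0.03 over all genes) and -0.50 in control siRNA cells (-0.05). Of all genes R1881 lowered 27.7% and raised 25.5% in SRF siRNA cells, and lowered 33.8% and raised 26.9% in control siRNA cells. PBK, a mitotic kinase, fell by 2.28 in SRF siRNA cells and by 4.40 in control siRNA cells, and LMNB1, a nuclear lamin, fell by 2.96 in control siRNA cells. KIF22, a chromosome-binding kinesin, rose by 0.54 in SRF siRNA cells and by 1.24 in control siRNA cells. SRF siRNA raised 40 and lowered 1 (PMF1, at -0.48) in vehicle, where it raised 30.7% and lowered 25% of all genes. With R1881 it raised 28 and lowered 2 (KIF22 at -0.67 and CKAP2 at -0.61), where it raised 33.6% and lowered 25.4% of all genes. CEP55, which acts in abscission, rose by 2.15 in vehicle, and PBK by 3.67 with R1881. The proliferation marker MKI67 fell by 1.63 ± 0.15 with R1881 in SRF siRNA cells (limma adjusted p = 1.69e-06) and was not called in control siRNA cells, at -0.11 ± 0.15 (limma adjusted p = 0.542). Its mean signals were 3.64 (SRF siRNA with R1881), 3.73 (control siRNA with R1881), 5.27 (SRF siRNA with vehicle) and 3.84 (control siRNA with vehicle), so only 1 group was above 4. Of 11 cohesin genes R1881 lowered 3 and raised 1 in SRF siRNA cells and lowered 7 and raised 2 in control siRNA cells, with SMC3 lowest at -0.93 in SRF siRNA cells and -1.03 in control siRNA cells. Of 14 core subunits it lowered 3 and raised 4 in SRF siRNA cells and lowered 3 and raised 5 in control siRNA cells. SRF siRNA raised 6 and lowered 2 cohesin genes in vehicle and raised 8 and lowered 1 with R1881. Of the core subunits it raised 3 and lowered 3 in vehicle and raised 2 and lowered 5 with R1881. Several of these counts lie near the shares over all genes, such as 3 of 11 cohesin genes lowered by R1881 in SRF siRNA cells, and the lists were not tested against each other.

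Other measures moved with the same groups. GAPDH is read by 3′ and 5′ probe sets whose gap widens as RNA degrades, and this gap averaged 0.49 ± 0.14 (SRF siRNA with R1881) against 0.36 ± 0.04 (SRF siRNA with vehicle), and 0.46 ± 0.02 (control siRNA with R1881) against 0.14 ± 0.09 (control siRNA with vehicle), on the log2 scale (SD, n = 3 each). Exact two-sided permutation tests gave p = 0.3 with SRF siRNA and p = 0.1 with control siRNA, the smallest p that 3 against 3 arrays allow. SRF siRNA with vehicle against control siRNA with vehicle also gave p = 0.1, and SRF siRNA with R1881 against control siRNA with R1881 gave p = 0.8 (exact permutation). With this measure as a covariate 46 of the 50 genes were called for R1881 in SRF siRNA cells (46.9% of all genes, against 53.1% without it) and 38 in control siRNA cells (38.2%, against 60.6%). For the difference of the R1881 effects 16 were called (18.6%, against 23.8%). SRF siRNA gave 41 in vehicle (38.4%, against 55.7%) and 41 in R1881 (58.9%, against 59.0%). The summed linear signal of the 6 fibroblast genes was 86.1 to 103 (SRF siRNA with R1881), 92.2 to 113 (control siRNA with R1881), 279 to 338 (SRF siRNA with vehicle) and 150 to 184 (control siRNA with vehicle). Of these COL3A1 had mean log2 values of 4.07 (SRF siRNA with R1881), 2.97 (control siRNA with R1881), 7.91 (SRF siRNA with vehicle) and 6.45 (control siRNA with vehicle). The sum of the 4 basal or mesenchymal genes was 287 to 361 (SRF siRNA with R1881), 93.9 to 99.6 (control siRNA with R1881), 220 to 238 (SRF siRNA with vehicle) and 120 to 131 (control siRNA with vehicle). VIM had mean log2 values of 8.25 (SRF siRNA with R1881), 6.31 (control siRNA with R1881), 7.74 (SRF siRNA with vehicle) and 6.76 (control siRNA with vehicle). For the 9 luminal prostate genes the sum was 48478 to 49195 (SRF siRNA with R1881), 80142 to 80918 (control siRNA with R1881), 16532 to 17630 (SRF siRNA with vehicle) and 21035 to 22393 (control siRNA with vehicle). It was highest where most mitotic genes were lowest. The part of these genes in the results above was not tested.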

How the data were processed

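RNA of LNCaP cells was measured on 12 Affymetrix arrays, 3 per group, from biotin-labelled cRNA made in 1 round, per the labels' protocols. The deposited values are log2 GCRMA signals, background-corrected and normalized by the authors, per the labels and the submitters' processing notes; the GCRMA version is not given in the sources used here. No scanner files were used here, so scan batches were not tested. Probe sets with a single symbol were kept, the one with the highest mean per gene was used, and genes over 4 on the log2 scale on 3 or more arrays were tested. The 10265 genes passing were fitted in limma 3.58.1 (R 4.3.3, statmod 1.5.0) with a mean for each of 4 groups, moderated over 8 residual degrees of freedom, and 5 contrasts were adjusted by Benjamini-Hochberg over all of them at 0.05. The fit was checked on simulated data. Figures used matplotlib 3.10.9 and pandas 2.3.3 (Python 3.11.15). Promoters came from RefSeq (GRCh38.p14).

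The mitotic genes, the other lists and the tests were chosen with earlier results of these data known. Array values were printed for NUSAP1, BUB1B, CENPF, CDC20 and NCAPD3, the 4 genes called with the greatest shift per contrast, and called genes that moved against the rest. The alternatives were other filters, floors, probe set rules, normalizations, thresholds and fits, a GAPDH covariate, a replicate block and leaving out each array. Precision is limited by 3 arrays per group, and an array gives no read depth.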

Additional observations from a re-analysis of the deposited data

Results flagged for a closer look

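The R1881 effect differed between the siRNAs for 24 of the 50 tested genes, where 23.8% of all tested genes did, by the interaction contrast in limma (difference of log2 changes, SRF siRNA minus control siRNA). The difference was above 0 for BUB1B (2.36), NUSAP1 (2.34), PTTG1 (2.29), CCNB2 (1.22), BIRC5 (1.18), PRC1 (1.05), CKS2 (0.96), HMMR (0.86), MAD2L1 (0.71), SMC2 (0.59) and ZWINT (0.52). It was below 0 for NCAPD3 (-2.54), ASPM (-1.98), KIF2C (-1.52), KIF11 (-1.26), ESPL1 (-1.24), BUB1 (-1.24), CENPF (-1.23), SPC25 (-1.01), NUF2 (-0.96), MYBL2 (-0.95), AURKB (-0.86), KIF20A (-0.76) and CENPN (-0.38). Of the 13 below 0, only NCAPD3 and CENPN rose with R1881 in either siRNA. ESPL1, BUB1, SPC25 and AURKB were tested only through their level in SRF siRNA with vehicle, which favours a difference below 0. These genes, ASPM and KIF11 had control siRNA means under 4 with both treatments, so a fall with R1881 could hardly be seen there. The difference of BIRC5 had the opposite sign on a second probe set, and that of HMMR was not called on its second one.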

How the results depend on the processing

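Of 90 results on 18 named genes, recomputed under 14 alternatives and with each array left out, 2213 of 2307 values kept direction and call. Reversed were the differences of the R1881 effects of CDC20 (-1.10), BIRC5 (-0.78) and HMMR (-0.22) with values under 4 set to 4, that of BIRC5 (-0.46) with probe sets averaged, and CENPN with SRF siRNA in vehicle (0.33) with probe sets averaged; the cause was not tested. The count of called differences, 24, became 13 at an adjusted p of 0.01 and 14 with a 2-fold minimum, which are stricter by construction. With the 2-fold minimum 2.59% of all genes were called above 0 and 2.42% below 0, and the share at 0.01 is not given here. Leaving out 1 array gave 45 to 46 called genes for R1881 with SRF siRNA, 42 to 46 for R1881 with control siRNA, 19 to 23 for the difference, 45 to 46 for SRF siRNA in vehicle and 39 to 42 for SRF siRNA in R1881. With all 12 arrays 53.1%, 60.6%, 23.8%, 55.7% and 59.0% of all tested genes were called, in that order. Shares over all genes with 1 array left out or with a replicate block are not given here. Differences that lost their call when single arrays were left out were those of CENPN (9 of 12 arrays, adjusted p = 0.0593 to 0.0928), CENPF (8, 0.0666 to 0.0817), HMMR (6, 0.057 to 0.0647) and KIF2C (6, 0.0531 to 0.0653). The SMC2 difference lost its call with probe sets averaged (0.34, limma adjusted p = 0.0712) and with the GAPDH covariate (0.42, limma adjusted p = 0.0938). The fall of ASPM with control siRNA lost its call without control siRNA vehicle replicate 1 (-0.43, adjusted p = 0.0683) or control siRNA R1881 replicate 1 (-0.74, 0.0512), and without a filter (0.0673). With values under 4 set to 4 the falls of ASPM, KIF11 and KIF2C with control siRNA were not called. Neither were the rises of KIF11 and CENPF with SRF siRNA in R1881. KIF2C gained a call for SRF siRNA in R1881 without control siRNA R1881 replicate 1 (0.0477) or 3 (0.0403). Same-numbered arrays did not deviate together (18 correlations, -0.21 to 0.0994, 0 over 0.1), and a replicate block gave, in the same order of comparisons, 46, 46, 21, 46 and 42 called genes, against 45, 45, 24, 45 and 40 without it. The fit of 2 groups alone gives no difference of effects. Low signal limits the genes near 4, since 32 of 50 had a mean under 4 in control siRNA with R1881.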

Other observations

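Of the 12 tested genes of the DREAM and MuvB complexes and their inhibitors, R1881 lowered 6 and raised 1 in SRF siRNA cells, and lowered 6 and raised 2 in control siRNA cells, by limma at an adjusted p of 0.05. Of all tested genes it lowered 27.7% and raised 25.5% in SRF siRNA cells, and lowered 33.8% and raised 26.9% in control siRNA cells. TFDP1, the E2F partner, fell by 1.22 in control siRNA cells, and RBL2, the p130 pocket protein of DREAM, fell by 0.77 in SRF siRNA cells. SRF siRNA raised 4 and lowered 1 of the 12 in vehicle, where it raised 30.7% and lowered 25% of all genes, so this count is near the background. In R1881 it raised 6 and lowered 2, where it raised 33.6% and lowered 25.4% of all genes. CDKN1A, the inhibitor p21, rose with SRF siRNA by 1.28 ± 0.10 in vehicle (SE; limma adjusted p = 1.08e-06) and by 1.01 ± 0.10 in R1881 (adjusted p = 5.26e-06). With R1881 it was not called, at -0.12 in SRF siRNA cells and 0.15 in control siRNA cells. CDKN1B, the inhibitor p27, rose with SRF siRNA by 0.42 in vehicle (limma adjusted p = 0.00595) and by 0.79 in R1881 (adjusted p = 5.16e-05), so both inhibitors were higher in the same cells as most mitotic genes.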
